A study of Mus musculus with 6 samples.

Results

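Gut hormones and serotonin are the products of enteroendocrine cells, and 10 of their genes were followed here in sorted intestinal stem cells: the peptide hormone genes Cck, Gcg, Sct, Sst, Gip, Pyy, Nts, Tac1 and Ghrl, and Tph1, which encodes the enzyme that starts serotonin synthesis in the gut. They were taken by name, which makes 10 of the 18193 genes that the array measures under a single symbol. Where a gene has several probe sets, the one brightest over the 6 arrays on the log2(intensity + 16) scale stands for it. The cells came from the small intestine of Lgr5-EGFP-IRES-creERT2 mice, in which the stem cell gene Lgr5 drives GFP and an inducible Cre, and both groups carried this allele. Cells with high GFP were collected 24 h after treatment from 3 mice given the solvent DMSO (vehicle) and 3 mice given DBZ, an inhibitor of gamma-secretase, the protease that frees the active part of Notch receptors. Each mouse gave 1 array of total RNA. The groups follow the titles; the descriptions mention only DMSO, also for the DBZ arrays. The dose is not repeated here because its printed unit is implausible, and the age of the mice is not given in the sources used here.

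Enteroendocrine cells are scattered secretory cells of the gut epithelium that arise from crypt stem cells. Notch signalling holds crypt progenitors away from secretory fates; where it is low, Atoh1 commits a cell to the secretory lineage and Neurog3 then directs it to the endocrine branch. Maturing endocrine cells switch on transcription factors such as Neurod1 and Isl1, build secretory granules, and express hormone genes in combinations that depend on the cell subtype and on the position along the gut.

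Values are linear probe set intensities, and the median of an array lay between 44.9 and 46.3. The arrays titled DBZ had 18.6 to 35.9 intensity units of Olfm4, a stem cell gene that depends on Notch, against 3627 to 5177 in the vehicle arrays, and their Lgr5 was at 209 to 242, against 204 to 271 with vehicle. Beside Lgr5, genes of mature cells were bright in every array, such as the goblet cell genes Tff3 and Zg16 with vehicle means of 23015 and 26292. Of 11 mesenchymal genes 6 were called higher, and their summed intensity was 19839 to 28975 with vehicle and 42082 to 49346 with DBZ. Of 6 adipocyte and mesothelial genes 2 were called higher (sums of 1374 to 2949 and 4965 to 12117), and of 7 endothelial genes 1 (sums of 607 to 700 and 797 to 921). Of 9 immune cell genes 2 were called higher, S100a8 and S100a9 of neutrophils, by 4.97 and 4.82 on the log2 scale. Among all genes 3.82% were called higher. The actin control's 3' probe set over its 5' probe set, a sign of RNA quality, gave 1.61 to 2.22 with vehicle and 1.51 to 1.57 with DBZ. The highest value was that of vehicle replicate 1. The same ratio of the Gapdh control overlapped, at 1.07 to 1.422 with vehicle and 1.049 to 1.095 with DBZ. Olfm4, S100a8, S100a9, the actin ratio and the sums for mesenchymal, adipocyte and mesothelial, and endothelial genes differed between the same groups as compared below. The part of all the levels above in the results was not tested. An array sums over all sorted cells, so more endocrine cells in the sort and more hormone RNA per cell cannot be told apart.

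None of the 10 genes passed the test with all 6 arrays, although 9 of the 10 differences were positive and their median was 1.16 on the log2 scale (limma, Benjamini-Hochberg adjusted p under 0.05 over all genes). Over all 18193 genes the median difference was -0.02, and 3.82% were called higher and 1.52% lower. At an unadjusted p under 0.05, 3 of the 10 genes were higher (Sct, Tac1 and Tph1), against 15.1% of all genes. The DBZ mice differed among themselves. For Gcg, Cck, Pyy, Sct and Tph1 the arrays of DBZ replicates 2 and 3 lay at 3.1 to 5.13 times the vehicle mean, while DBZ replicate 1 lay at 0.894 to 1.49 times it. In Sst, Nts and Gip all DBZ arrays lay between 0.774 and 1.17 times the vehicle mean.

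**Figure D1:**
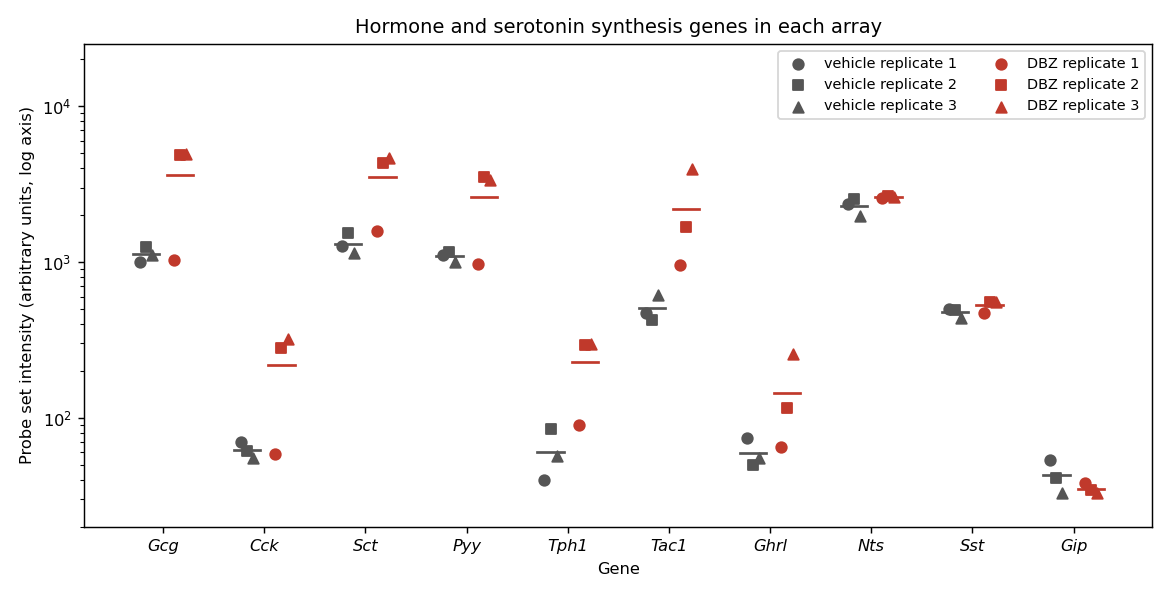
Probe set intensity (log axis) of the 10 genes in each array, grey for vehicle and red for DBZ, with the marker shape giving the replicate and a bar the group mean. For Gcg, Cck and Pyy the red circle of DBZ replicate 1 sits among or below the vehicle points while replicates 2 and 3 sit above them; for Sst, Nts and Gip the groups lie close together.

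Gcg encodes proglucagon, which L cells of the gut cut into the glucagon-like peptides. Its intensity was 1006, 1238 and 1108 in the vehicle arrays and 1025, 4845 and 4947 in the DBZ arrays, here and below in the order of replicates 1, 2 and 3. DBZ replicate 1 was thus within the vehicle range and the other two stood apart from it. The difference was 1.37 ± 0.60 on the log2 scale (SE, n = 3 a group), with a 95% interval of -0.09 to 2.84 (limma, adjusted p = 0.21). Pyy encodes peptide YY, another L cell hormone, which slows gut transit and reduces appetite. It stood at 1115, 1151 and 995 in the vehicle and 972, 3496 and 3369 in the DBZ arrays. Again DBZ replicate 1, here below all vehicle arrays, parted from the other two (difference 1.05 ± 0.49, interval -0.14 to 2.23; limma, adjusted p = 0.24).

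Cck encodes cholecystokinin, the I cell hormone that empties the gallbladder and stimulates pancreatic enzyme release. Its intensity was 69.5, 61.0 and 55.5 in the vehicle arrays and 58.7, 278.6 and 318.4 in the DBZ arrays, the same arrangement at a dim level. The difference was 1.32 ± 0.56 with an interval of -0.04 to 2.68 (limma, adjusted p = 0.20). Sct encodes secretin, which makes the pancreas release bicarbonate and is produced in several endocrine cell types. It was at 1264, 1526 and 1142 in vehicle and at 1578, 4286 and 4654 in DBZ arrays. The groups did not overlap, but DBZ replicate 1 exceeded vehicle replicate 2 by little. The difference was 1.27 ± 0.41 with an interval of 0.26 to 2.28 (limma, adjusted p = 0.12).

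Tac1 and Tph1, both genes of enterochromaffin cells, the serotonin cells of the epithelium, had the largest differences of the 10. Tac1, the precursor of substance P and neurokinin A, was at 470, 427 and 616 intensity units in vehicle and at 960, 1669 and 3922 in DBZ arrays. Every DBZ array was above every vehicle array, DBZ replicate 1 included, and the DBZ arrays spread over a wide range. The difference was 1.86 ± 0.49 with an interval of 0.67 to 3.04 (limma, adjusted p = 0.079). A second Tac1 probe set was at 13.8 to 20.9 in all 6 arrays, near the floor of the array, and showed a difference of -0.05. Tph1, tryptophan hydroxylase, was at 40.2, 84.9 and 56.8 in vehicle and at 90.2, 292.2 and 298.5 in DBZ arrays. The groups were apart, DBZ replicate 1 only just so (difference 1.55 ± 0.46, interval 0.43 to 2.67; limma, adjusted p = 0.10).

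Ghrl, the gene of the appetite hormone ghrelin, was dim, at 74.5, 49.99 and 54.9 in vehicle and 64.9, 115.0 and 255.0 in DBZ arrays. DBZ replicate 3 alone was far above the rest, and DBZ replicate 1 lay within the vehicle range (difference 0.92 ± 0.42, interval -0.11 to 1.95; limma, adjusted p = 0.23). Nts, the gene of neurotensin from N cells of the lower small intestine, was bright in every array, at 2349, 2531 and 1972 in vehicle and 2559, 2655 and 2600 in DBZ arrays. Its groups met without overlapping and the interval of the difference, -0.05 to 0.44, lies below 1, a 2-fold change (difference 0.20 ± 0.10; limma, adjusted p = 0.28). With quantile normalization the groups overlapped. Sst, the gene of somatostatin, the D cell peptide that restrains the release of other hormones, was at 495.5, 491.7 and 436.5 in vehicle and 469.6, 556.8 and 557.3 in DBZ arrays. DBZ replicate 1 again lay inside the vehicle range, but here the other two were at 1.17 times the vehicle mean (difference 0.15 ± 0.09, interval -0.08 to 0.37; limma, adjusted p = 0.37). Gip, the gene of the incretin of K cells, had the only negative difference and was dim, at 53.9, 41.0 and 33.1 in vehicle and 38.2, 34.3 and 33.0 in DBZ arrays, which overlapped (-0.18 ± 0.13, interval -0.51 to 0.14; limma, adjusted p = 0.44).

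The arrangement of the arrays can be set against that of all genes. All 3 DBZ arrays lay above all 3 vehicle arrays for 4 of the 10 genes (Sct, Nts, Tac1 and Tph1), against 17.3% of all genes. Taken singly, DBZ replicate 1 was above all vehicle arrays for those same 4 genes and DBZ replicates 2 and 3 for 9 each, while the shares of all genes were 29.5%, 30.8% and 32.2%. For 5 of the 10 genes (Cck, Gcg, Sst, Pyy and Ghrl) DBZ replicates 2 and 3 exceeded every vehicle array and DBZ replicate 1 did not, an arrangement found in 5.79% of all genes. This last count was defined after the values had been seen.

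Leaving out single arrays moved the calls. Without DBZ replicate 1, 6 of the 10 genes were called higher (Cck, Gcg, Sct, Pyy, Tac1 and Tph1), and 7.17% of all genes were. Gcg then stood at a difference of 2.12 with an interval of 1.86 to 2.38 and Cck at 2.01 with 1.74 to 2.28 (limma, adjusted p = 0.0034 and 0.0038). Pyy, Sct, Tac1 and Tph1 stood at 1.65, 1.77, 2.32 and 2.06 (limma, adjusted p = 0.0038, 0.0066, 0.024 and 0.012). Ghrl at 1.33 did not pass (limma, adjusted p = 0.061), nor did Sst, Nts and Gip. Without any other single array 0 of the 10 genes passed, and only 16 to 279 of all 18193 genes were called higher. Notch target genes also differed among the DBZ arrays: in replicates 1, 2 and 3 Olfm4 was at 35.9, 18.6 and 29.9, Nrarp, a feedback inhibitor of Notch, at 169, 127 and 93.9, and Hes1, a repressor switched on by Notch, at 181, 255 and 202. DBZ replicate 1 thus had the highest Olfm4 and Nrarp and the lowest Hes1 of the 3. Olfm4 was below the array median in each DBZ array, so its order among them is uncertain. The other listed Notch targets were Hey1, at 33.2, 39.8 and 35.0 and also below the medians, and Dtx1, at 109.4, 122.5 and 97.6. The vehicle arrays were at 468 to 542 for Nrarp and 332 to 431 for Hes1, above every DBZ array. The part of these levels in the hormone values was not tested.

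**Figure D2:**
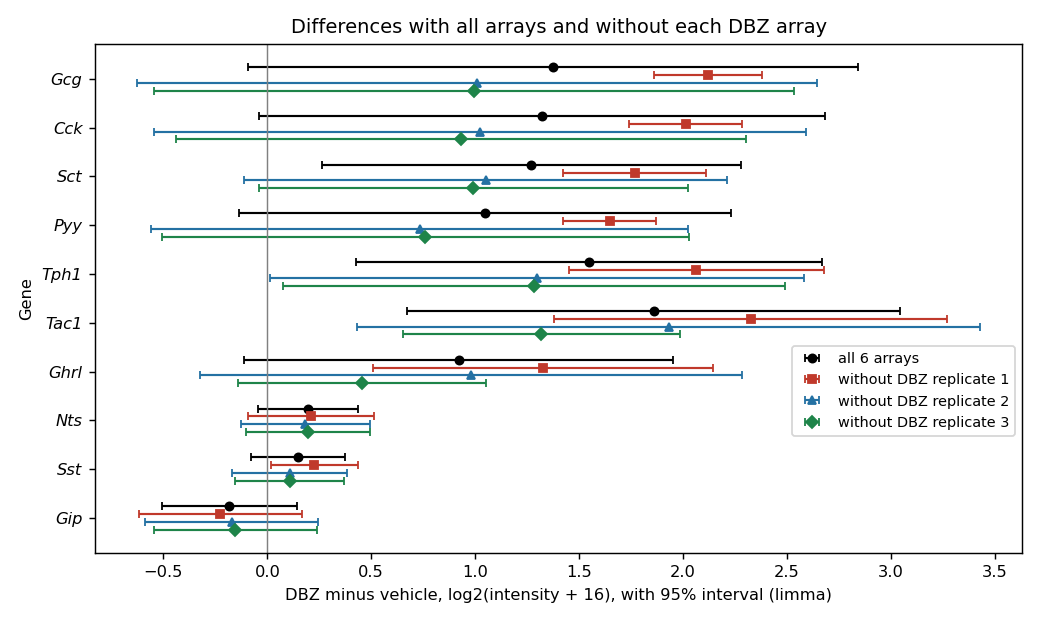
DBZ minus vehicle difference in log2(intensity + 16) with its 95% interval from limma for each gene, with all 6 arrays and without each DBZ array. Without DBZ replicate 1 the intervals of Gcg, Cck, Sct and Pyy narrow and lie above 1, while those of Nts, Sst and Gip stay near 0 in each case.

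The start regions of the genes are shown because several of them differed together in DBZ replicates 2 and 3. Windows of 250 bases before each start in RefSeq (GRCm38.p6) were found for all 10 genes, 15 windows in all, with 4 starts for Ghrl and 2 each for Pyy and Tph1. The E box CANNTG, the letters bound by basic helix-loop-helix factors such as Neurod1 and Neurog3, was present in 11 of the 15 windows and in 66.2% of all 32851 windows of this length. Its version CAGATG, or CATCTG on the other strand, was present in 4 of the 15 windows, those of Gcg, Cck, Sct and Tac1, and in 14.4% of all windows. In Gcg it begins 139 and 83 bases before the start, in Sct 242, in Tac1 173 and in Cck 30 bases. Neither window of Pyy or Tph1 held CAGATG or CATCTG, and those of Tph1 held no E box at all. Another version of the E box, CAGCTG, was present in windows of Sct, Gip, Nts and Ghrl. Whether any of these letters go with the differences between the groups was not tested. The cyclic AMP response element TGACGTCA, found in 1.55% of all windows, was present only in that of Sst among the 15, beginning 48 bases before the start. A match describes these letters only. The windows, 5′ to 3′ on the strand of the gene, are Gcg at chr2:62483654-62483903 (minus strand), Cck at chr9:121495695-121495944 (minus strand), Sct at chr7:141279134-141279383 (minus strand), Tac1 at chr6:7554811-7555060 (plus strand) and Sst at chr16:23890845-23891094 (minus strand). Capitals mark CANNTG, TGACGTCA and TATAAA on either strand, the last of which is in 12.4% of all windows.
Gcg: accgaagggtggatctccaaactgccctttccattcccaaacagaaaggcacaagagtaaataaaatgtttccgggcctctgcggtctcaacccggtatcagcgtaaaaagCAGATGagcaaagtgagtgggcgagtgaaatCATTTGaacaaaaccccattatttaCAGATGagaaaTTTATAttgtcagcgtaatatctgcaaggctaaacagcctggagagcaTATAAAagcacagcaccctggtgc
Cck: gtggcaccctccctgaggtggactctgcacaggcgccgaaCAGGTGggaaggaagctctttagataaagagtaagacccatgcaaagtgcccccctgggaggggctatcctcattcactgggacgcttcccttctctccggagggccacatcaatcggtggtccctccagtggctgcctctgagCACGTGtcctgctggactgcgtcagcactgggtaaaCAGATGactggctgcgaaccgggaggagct
Sct: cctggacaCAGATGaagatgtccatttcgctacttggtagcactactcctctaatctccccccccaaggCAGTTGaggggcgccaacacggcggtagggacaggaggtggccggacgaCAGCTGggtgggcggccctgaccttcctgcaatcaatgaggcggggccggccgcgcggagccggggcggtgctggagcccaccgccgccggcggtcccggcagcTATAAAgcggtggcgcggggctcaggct
Tac1: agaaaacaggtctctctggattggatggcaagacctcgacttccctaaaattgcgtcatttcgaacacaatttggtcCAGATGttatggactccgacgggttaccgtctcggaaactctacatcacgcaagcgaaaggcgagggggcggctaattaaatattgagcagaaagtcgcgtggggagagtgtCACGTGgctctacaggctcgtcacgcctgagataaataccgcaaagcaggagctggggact
Sst: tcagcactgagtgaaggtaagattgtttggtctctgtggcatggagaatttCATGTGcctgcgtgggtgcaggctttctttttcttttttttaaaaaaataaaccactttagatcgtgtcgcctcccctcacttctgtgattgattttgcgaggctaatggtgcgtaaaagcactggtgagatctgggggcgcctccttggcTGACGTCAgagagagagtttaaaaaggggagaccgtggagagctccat

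Transcription factors of the endocrine lineage include genes that passed with all arrays. Of 20 measured factors 5 rose and 0 fell, with a median difference of 0.38. The shares of all genes called were 3.82% higher and 1.52% lower. Neurod1, which acts downstream of Neurog3, was at 95.9, 92.0 and 90.4 in vehicle and 312, 432 and 385 in DBZ arrays. DBZ replicate 1 was well above the vehicle arrays here (difference 1.84 ± 0.12; limma, adjusted p = 0.0046). Isl1, a homeodomain factor of hormone cells, rose by 1.67 ± 0.17, the zinc finger gene Insm1 by 1.42 ± 0.18 and the zinc finger gene St18 by 0.98 ± 0.10 (limma, adjusted p = 0.017, 0.024 and 0.019). DBZ replicate 1 was above all vehicle arrays for 17 of the 20 factors, DBZ replicate 2 for 14 and DBZ replicate 3 for 12. The shares of all genes were 29.5%, 30.8% and 32.2%. Neurog3, named after its values were seen, had its highest intensity in DBZ replicate 1, at 521, followed by 197 and 75.0 in DBZ replicates 2 and 3, against 39.0 to 56.7 in vehicle arrays. It did not pass (difference 1.74 ± 0.60; limma, adjusted p = 0.14). So the DBZ array with the most Neurog3 signal was the one whose Gcg, Cck and Pyy lay at vehicle levels. Whether the factors and the hormones differ in this respect was not tested, since it rests on 1 array.

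Hormones are cut from larger precursors and stored in granules. Of 21 measured genes of granules and processing 2 rose and 0 fell, with a median of 0.50, and 14 were higher at an unadjusted p under 0.05. The shares of all genes were 3.82%, 1.52% and 15.1%. Pcsk1, the convertase that cuts proglucagon and other prohormones, was at 115, 137 and 106 in vehicle and 177, 255 and 221 in DBZ arrays, which were all higher (0.78 ± 0.15; limma, adjusted p = 0.043). Syt13, of the synaptotagmin family, rose by 1.06 ± 0.11 (limma, adjusted p = 0.017). Against 29.5%, 30.8% and 32.2% of all genes, DBZ replicates 1, 2 and 3 were above all vehicle arrays for 12, 18 and 17 of the 21 genes. The median difference from the vehicle mean in DBZ replicates 1, 2 and 3 was 0.20, 0.73 and 0.62 for these genes, 0.34, 0.46 and 0.32 for the transcription factors and 0.05, 1.69 and 1.84 for the 10 hormone and serotonin genes.

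**Figure D3:**
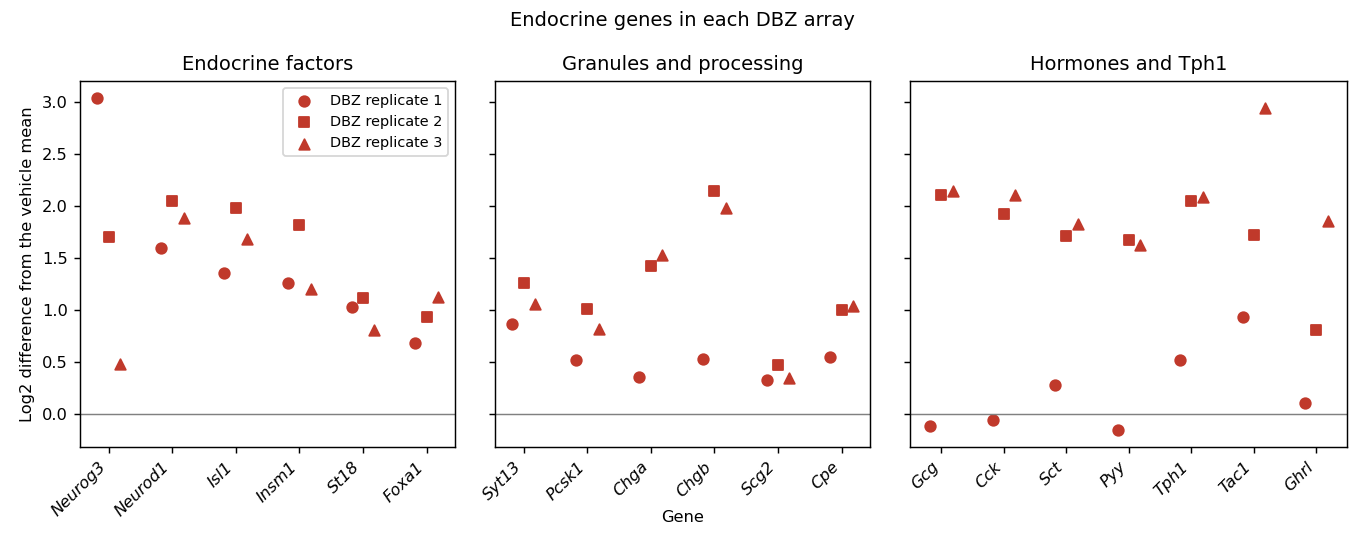
Log2 difference of each DBZ array from the vehicle mean for 6 endocrine transcription factors, 6 genes of granules and processing, and 7 hormone and serotonin genes. The circle of DBZ replicate 1 is the highest point for Neurog3 and lies above 1 for Neurod1, Isl1, Insm1 and St18, but lies near 0 for Gcg, Cck and Pyy.

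The genes with the most similar values over the 6 arrays were sought for Tac1, Tph1 and Gcg, the 3 with the largest differences, by the root mean square difference in log2 values after setting each gene's vehicle mean to 0. The nearest gene to Gcg was Cck, at 0.16, followed by the granin gene Chgb at 0.27 and Sct at 0.28. Chgb was also the nearest to Tph1, at 0.15, followed by S100a14 at 0.24 and Ica1, an islet cell autoantigen gene, at 0.25. The nearest to Tac1 were Creld2, Nucb2 and B3gnt5, at 0.21, 0.22 and 0.23. The Gcg and Tph1 neighbours Chgb and Cck have their low DBZ array in replicate 1, at 0.52 and -0.06 relative to the vehicle mean, and the Tac1 neighbours have their high one in replicate 3, at 2.55 to 2.82.

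Among the other steps of serotonin handling, Gch1, which makes the cofactor that tryptophan hydroxylase needs, rose. It was at 216, 233 and 292 in vehicle and 537, 814 and 816 in DBZ arrays, apart in all 3 mice (1.48 ± 0.19; limma, adjusted p = 0.025). It was the only one of 17 measured genes of amine synthesis, transport and breakdown that passed higher, none passed lower, and their median was -0.05. Over all genes 3.82% were called higher and 1.52% lower. Tph1 is also expressed by mast cells, and of 12 mast cell genes only Kit, a receptor found on other cells as well, passed (1.71 ± 0.21; limma, adjusted p = 0.023). Among the mast cell proteases Mcpt1, Mcpt2, Mcpt4, Cma1, Cpa3 and Tpsb2 lay at 10.6 to 43.1 in all 6 arrays, below the array medians. Tpsab1 was at 64.4, 46.5 and 44.5 in vehicle and 37.9, 36.5 and 40.8 in DBZ arrays, above the median in vehicle replicates 1 and 2. Gata2, a factor of mast cells and other cells, was above every array median, at 80.5 to 115 with vehicle and 85.8 to 96.5 with DBZ. Hdc, also in this list, was at 28.0, 25.3 and 28.6 in vehicle and 28.9, 28.4 and 56.9 in DBZ arrays. It was above the array median in DBZ replicate 3 only. The summed intensity of the 12 genes was 633 to 710 with vehicle and 1335 to 1626 with DBZ, of which Kit made up 1013 to 1337 in DBZ arrays.

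**Figure D4:**
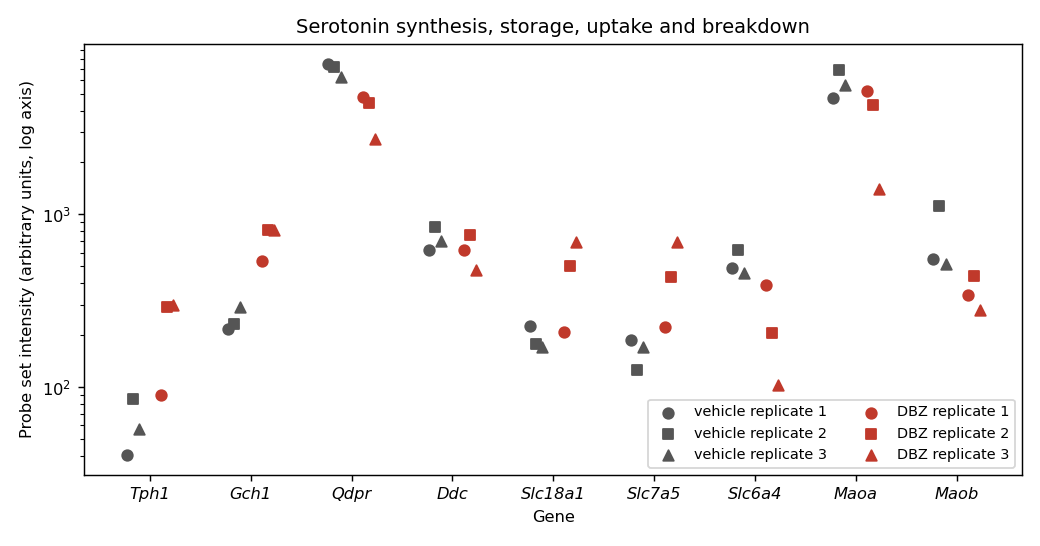
Probe set intensity (log axis) in each array of Tph1, the cofactor genes Gch1 and Qdpr, the decarboxylase gene Ddc, the vesicle transporter gene Slc18a1, the amino acid transporter gene Slc7a5, the serotonin transporter gene Slc6a4 and the monoamine oxidase genes Maoa and Maob. Red DBZ points lie above grey vehicle points for Tph1, Gch1 and Slc7a5 and below them for Qdpr, Slc6a4 and Maob.

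Other peptide genes were mostly dim. Of 20 measured, 1 passed, and their median was 0.11. The share of all genes called higher was 3.82%. The peptide gene that passed was Vip, the gene of vasoactive intestinal peptide, a product of enteric neurons. It was at 673, 703 and 820 in vehicle and 1088, 1201 and 1227 in DBZ arrays (0.67 ± 0.09; limma, adjusted p = 0.027). Of 13 genes of enteric neurons and glia 3 were called higher in the same arrays, and their summed intensity was 750 to 925 with vehicle and 1047 to 1306 with DBZ. The list's neuronal genes Stmn2 and Prph, which had its highest signals, were at 90.2 to 169 and 88.5 to 140 with vehicle and at 158 to 213 and 143 to 178 with DBZ. The glial genes Gfap and Sox10 were at 22.6 to 28.7 and 67.2 to 81.3 over all arrays. The part of neurons in the Vip and Tac1 values was not tested.

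Receptors of these hormones gave low signals. Only 1 of 27 measured had a mean above that of the median gene, none rose and 1 fell, the serotonin receptor gene Htr4, from 22.4 ± 0.87 to 12.6 ± 1.64 intensity units (SD, n = 3), which is near the floor of the arrays (-0.43 ± 0.07; limma, adjusted p = 0.030). Their median difference was -0.07. Among all genes 3.82% were called higher and 1.52% lower. Of 15 measured nutrient sensor genes 1 rose, Abcc8, a subunit of the channel that couples glucose to secretion, from 30.3 ± 0.97 to 43.7 ± 2.73 (SD, n = 3; 0.37 ± 0.06; limma, adjusted p = 0.034). Abcc8 was dim too, with only 30.7% of genes dimmer. The median of the 15 genes was -0.10. Among 9 peptidase and hormone modifying genes 0 passed in either direction and the smallest unadjusted p was 0.14 (limma), with Enpep at -0.18 ± 0.10 and Ece1 at -0.14 ± 0.08 (SE, n = 3; limma, adjusted p = 0.34 each).

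Gcg, Sst and Ghrl are also expressed in the pancreas or stomach. The summed intensity of 8 genes of pancreatic acinar cells was 510 to 551 with vehicle and 463 to 540 with DBZ, and that of 9 gastric genes was 394 to 492 and 372 to 415. None of either list passed in either direction, against 3.82% of all genes called higher and 1.52% lower. Each list had 1 gene above the median gene. The part of pancreas or stomach cells in the Gcg, Sst and Ghrl values was not tested.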

How the data were processed

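Total RNA of 6 arrays, 1 per mouse, was amplified with a 3' IVT kit per the labels' protocols. The deposited table holds intensity values on a linear scale, 1 column an array, brought to a common level by the authors. Software for background correction and normalization: not given in the sources used here. Of 45101 probe sets, 34945 had a single symbol outside the 64 controls in the probe table. The 932 with several symbols and 9160 with none were left out. RefSeq synonyms matched 1 listed symbol.

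DBZ was compared with vehicle on log2(intensity + 16) with lmFit and eBayes of limma 3.58.1 (R 4.3.3), two-sided, with Benjamini-Hochberg adjustment over 18193 genes and a threshold of 0.05. Differences understate changes of dim genes. Errors are moderated SE unless given as SD. The number of arrays limits precision. The test was tested on simulated data.

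The members and lists were chosen with earlier results of these data known. The naming rule took all members, up to 4 called genes of a pathway list by smallest p or otherwise 2, and the brightest 2 of a marker list. Not all of its marker picks are printed. Nrarp, Hey1, Dtx1, Neurog3, Lgr5, the mast cell proteases, Hdc, S100a8, S100a9, Gfap and Sox10 were named outside it, after their values were seen. So were the genes set out as other observations and some of those plotted. Alternatives covered normalization, pseudocount, filters, probe set choice, variance models, threshold, the replicate block and each array left out.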

Additional observations from a re-analysis of the deposited data

How the results depend on the processing

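Directions of the 10 differences did not reverse in any of 185 values under the alternatives. Of these values 172 kept their side of the threshold and 13 newly passed it. Many of them could not reverse. The intensity trend, robust variance and replicate block leave the difference itself unchanged, as do the probe set choices for genes with a single probe set. Tac1 alone was called higher of the 6 genes tested with genes above the median mean only, where 877 of 9096 genes were. It was also the only one of the 9 tested with genes reaching an intensity of 100 only, where 1001 of 10261 genes were called higher. The same held for all 10 with an intensity trend and at an adjusted p under 0.1, with 893 and 1642 of 18193 genes called higher. With array weights 3 of 10 were called higher (Sct, Tac1 and Tph1). The count of the 10 was 0 to 6 over the left-out arrays, 6 without DBZ replicate 1 and 0 otherwise. Over all genes, 695 were called higher and 277 lower. These counts were 310 and 130 with a pseudocount of 64, 1660 and 1030 with array weights and 1642 and 933 at an adjusted p under 0.1. Over the left-out arrays they were 16 to 1305 and 3 to 727; the extremes came without vehicle replicate 2 and without DBZ replicate 1. The causes were not tested.

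Replicate numbers are shared by the groups, but the titles name separate mice, so the numbers were not taken as pairs. Deviations of same-numbered arrays correlated at -0.01, 0.25 and 0.20, across genes. These values cannot decide whether arrays were paired, since those of differently numbered arrays were not set beside them. With the replicate block 672 genes were called higher, 217 lower and 1 of the 10, Tph1 (limma, adjusted p = 0.049). Cck, Gip, Ghrl and Tph1 had means below the median gene, and their sizes are uncertain: Ghrl gave 0.66 when 64 was added before the log and 1.06 when 1 was added.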

Other observations

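The genes below were singled out after their values had been seen, and none of them passed the test over all genes. Slc6a4, the transporter that takes serotonin back into cells, was at 490, 621 and 457 intensity units in vehicle and at 388, 206 and 103 in DBZ replicates 1, 2 and 3 (-1.28 on the log2 scale; limma, adjusted p = 0.13). Maob, a monoamine oxidase, was at 553, 1119 and 517 and at 339, 440 and 280 (-0.95; limma, adjusted p = 0.13). Qdpr, which recycles the cofactor of tryptophan hydroxylase, was at 7484, 7136 and 6224 and at 4810, 4434 and 2736 (-0.83; limma, adjusted p = 0.079). In all 3 genes every DBZ array was below every vehicle array. This held for 4 of the 17 measured genes of amine synthesis, transport and breakdown. The 4th was Tph2, at 9.3 to 10.6 in all arrays, near the floor. In 4 others of the 17 every DBZ array was above every vehicle array, against 17.3% of all genes. The share of all genes with every DBZ array below every vehicle array was not counted.

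Iapp, the gene of amylin, was at 123, 99.3 and 84.8 in vehicle and 167, 359 and 667 in DBZ arrays (1.62; limma, adjusted p = 0.090). Insl5, a hormone gene best known from L cells of the colon, was at 37.0, 28.4 and 31.6 in vehicle and 27.8, 105.3 and 122.3 in DBZ arrays (0.91; limma, adjusted p = 0.24), with DBZ replicate 1 below every vehicle array. Ffar2, a receptor for short-chain fatty acids, was at 184, 149 and 151 in vehicle and 227, 594 and 648 in DBZ arrays (1.38; limma, adjusted p = 0.087).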
